A study of Mus musculus with 7 samples.

Results

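The genes described here encode the enzymes and transporters that carry glucose into the cell, break it down to pyruvate and lactate, and pass pyruvate to the mitochondria or glucose to the pentose phosphate pathway. They are 34 named mouse genes, taken by gene symbol from the deposited table of 16476 genes. The rule asked for a mean normalized read count of at least 10 over the 7 libraries, and all 34 met it, as did 12963 genes in all. The tested libraries came from Netrin1loxp/loxp LysM Cre mice (n = 3, knockout libraries below), which carry floxed alleles of Ntn1, the netrin-1 gene, and Cre in the lysozyme M locus, which acts in myeloid cells. The other libraries came from LysM Cre mice without the floxed alleles (n = 4, control libraries below). All mice were C57BL/6, and all received lipopolysaccharide, a bacterial endotoxin, into the trachea. Cells were washed out of the airspaces 3 days later and depleted of neutrophils with antibodies, so each library holds a mixture of the remaining cells, and Cre acts in only some of them. The labels state neither ages nor whether the libraries of a group are separate mice, so p-values cover only the variation seen between libraries, which may be technical.

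Glycolysis splits glucose into pyruvate and gives ATP without oxygen. Macrophages that sense lipopolysaccharide are known to take up more glucose and to release lactate, with hypoxia-inducible factor driving many of the same genes. Several steps are run by isozymes from separate genes, of which one is common to most tissues and others are induced or tied to a cell type.

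The libraries held between 9903284 reads (control replicate 4) and 13353733 reads (control replicate 3). Ntn1 had 1, 0 and 1 reads in knockout replicates 1 to 3, against 1, 4, 9 and 3 in control replicates 1 to 4, too few to check the labels. The leukocyte gene Ptprc lay between 22022 and 25797 normalized counts in knockouts and between 19487 and 23184 in controls. It belongs to a list of 7 leukocyte and macrophage genes of which 6 had a negative log2 fold change, 0 were called higher and 3 were called lower without overlap. Those 3 macrophage genes were Cd68 (log2 fold change -0.59, limma adjusted p = 0.00402), Adgre1 (-0.36, limma adjusted p = 0.0332) and Csf1r (-0.58, limma adjusted p = 0.0204). The list's summed level was 47790 to 53726 in knockouts and 56050 to 181226 in controls, and it includes Lyz2. Lyz2, at the locus that carries Cre, lay between 909.7 and 1052 in knockouts, and among controls at 76927 in replicate 1 and 118781 in replicate 4, against 770.1 in replicate 2 and 721.3 in replicate 3. Summed markers of other cells differed too: 15 neutrophil genes came to 132134, 48887 and 53281 in knockout replicates 1 to 3 and lay between 32798 and 43674 among controls. The sum over 10 natural killer cell genes was 48517 to 54313 in knockouts and 10394 to 16665 in controls. The sum over 14 genes of monocytes and recruited macrophages was 32592 to 41250 in knockouts and 59350 to 84145 in controls. Of these lists, 7 of 15, 10 of 10 and 1 of 14 genes were called higher, and 9 of the 14 lower. The 1 called higher of the 14 was Ccr2 (log2 fold change 0.48, limma adjusted p = 0.0423). Ly6c2 (-0.32) and Ms4a4c (0.42) of the same list were not called, so its genes did not move together. The epithelial sum (11 genes, 7 called higher) was 1015 to 1364 in knockouts and 532.8 to 742.4 in controls, and the dendritic cell sum (7 genes, 2 called higher) was 1958 to 3341 in knockouts and 1110 to 1566 in controls. The alveolar macrophage, T cell and B cell sums overlapped between groups. Chil3 made up most of the alveolar macrophage sum (66353 of 73308 in knockout replicate 1). Of the 12 alveolar macrophage genes 0 were called. Of the 10 T cell genes 1 was called higher, Cd28 (log2 fold change 0.72, limma adjusted p = 0.00306). No marker in the table was at 0 in all 7 libraries. In such mixtures fewer cells of a type and less RNA per cell cannot be told apart, and the part of cell composition in the results below was not tested.

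Of the 34 genes, 5 fell in knockout libraries and 0 rose (limma on log2 normalized counts, adjusted p under 0.05). The 5 were the hexokinases Hk2 and Hk3, the phosphofructokinase subunit Pfkm, the enolase Eno2 and the lactate dehydrogenase subunit Ldhb. Of all genes tested, 11.3% were called lower, 10.4% higher and 21.7% in either direction, so the share of members called lower, 14.7%, lay near the background. At an unadjusted p under 0.05, 9 of the 34 members were lower and 0 higher, while 4741 of the 12963 genes tested passed in either direction. edgeR on the recovered reads called 5 members lower and 0 higher, where it called 11.5% of all genes lower, 10.5% higher and 22.1% in either direction. DESeq2 called 6 members lower and 0 higher, where it called 12.4% of all genes lower and 10.9% higher. For 6 members every knockout library was below every control library (16.3% of all genes tested), and for 3 every knockout library was above (17.4%). The median log2 fold change was -0.12 over the 34 members and 0.014 over all genes tested, and it was negative for 23 of the 34 members (67.6%) and for 48.1% of all genes tested. Every fold change is the knockout level over the control level. With single libraries left out, 1 to 5 members were lower; leaving out knockout replicate 2 gave 1, leaving out control replicate 4 gave 2, and leaving out any other control gave 3. When the pair of controls with high Lyz2 was left out, 1 member was lower and 1 (Slc2a6) higher. The calls among all genes became fewer as well. In either direction they numbered 2813 in the main fit, 1515 without knockout replicate 2 and 1802 without control replicate 4. They numbered 1805 to 2389 without any other control and 1191 without control replicates 1 and 4.

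**Figure D1:**
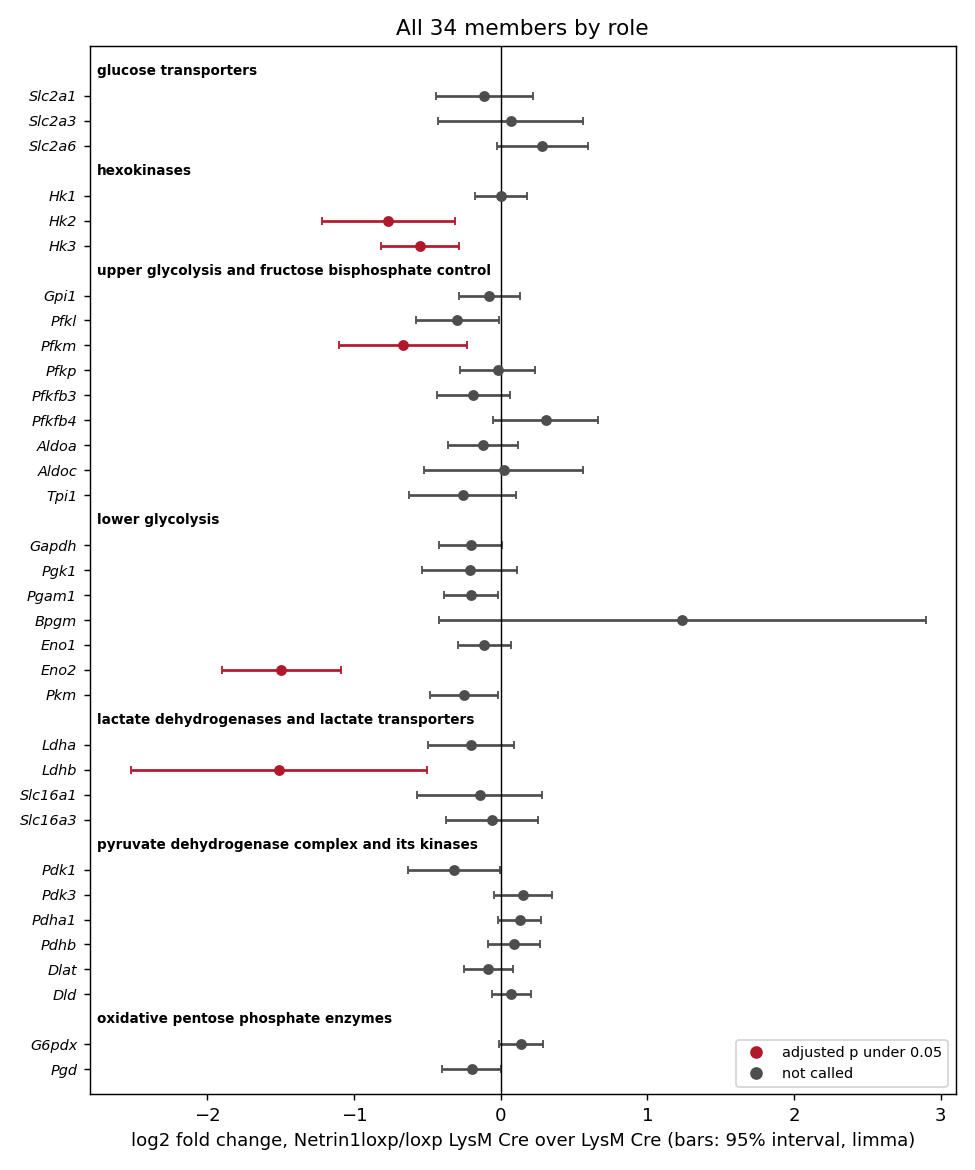
Log2 fold change of each of the 34 genes (knockout over control libraries, x axis) with its 95% interval, grouped by role; red marks an adjusted p under 0.05. The 5 red points, Hk2, Hk3, Pfkm, Eno2 and Ldhb, all lie below 0, and Bpgm has the widest interval, from -0.42 to 2.90.

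Glucose transporters did not pass the test. Slc2a1, the common basal transporter, lay between 1685 and 1931 normalized counts in knockouts and between 1465 and 2376 in controls (log2 fold change -0.11, 95% interval -0.44 to 0.22, limma adjusted p = 0.616). Slc2a3, a high-affinity transporter, lay between 183.4 and 293 in knockouts and between 169.9 and 293.4 in controls (log2 fold change 0.068, interval -0.43 to 0.56). Slc2a6, a transporter of intracellular membranes found in leukocytes, had 918.7, 872.1 and 921.4 in knockout replicates 1 to 3, against 895.8, 665.4, 598.2 and 848.9 in control replicates 1 to 4. Its log2 fold change was 0.28 (SE 0.14, limma adjusted p = 0.168). Among the alternatives it was called higher only when control replicates 1 and 4 were left out together, at a log2 fold change of 0.52 (adjusted p = 0.0233; 0.0233 to 0.708 over the 21 alternatives). Per kilobase of transcript, Slc2a6 made up 41.0% ± 0.975 of the 3 transporters' summed level in knockouts (SD, n = 3) and 34.9% ± 2.47 in controls (SD, n = 4), and the libraries of the groups did not overlap in that share.

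Hexokinases trap glucose in the cell by phosphorylating it, and 2 of the 3 fell. Hk2, the inducible form that binds mitochondria, had 1411, 1960 and 2355 normalized counts in knockout replicates 1 to 3, against 3378, 3204, 2377 and 3952 in control replicates 1 to 4. The groups did not overlap, but the highest knockout library and the lowest control library, replicate 3 of each, were almost level. The log2 fold change was -0.77 (SE 0.20, limma adjusted p = 0.0277). The call was lost without control replicate 1 (adjusted p = 0.0590), control replicate 2 (0.0678), control replicate 4 (0.0704), knockout replicate 1 (0.0620) or knockout replicate 2 (0.0662), and over all 21 alternatives the adjusted p lay between 0.00160 and 0.161. Hk3, the hexokinase of myeloid cells, had 3650, 3316 and 3797 normalized counts in knockout replicates 1 to 3, against 5611, 5852, 4213 and 5470 in control replicates 1 to 4. Every knockout library was below every control library, as for 16.3% of all genes tested. The same held for the summed level of monocyte and recruited macrophage markers and for the macrophage genes Cd68, Adgre1 and Csf1r. Those genes share a list with Ptprc, Itgam, Fcgr1 and Lyz2, which overlapped and were not called. The neutrophil sum was instead higher in every knockout library, and the part of cell composition in Hk3 was not tested. The log2 fold change of Hk3 was -0.55 (SE 0.12, limma adjusted p = 0.0129). Without knockout replicate 2 its adjusted p was 0.0527 (0.000147 to 0.0968 over the alternatives).

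Hk1, the constitutive hexokinase, was level, with 2017 ± 100.8 normalized counts in knockouts (SD, n = 3) and 2018 ± 160.2 in controls (SD, n = 4). Its log2 fold change was 0.0012, with an interval of -0.18 to 0.18. Per kilobase of transcript Hk3 was the main hexokinase in every library, at 54.7% to 59.3% of the family's summed level in knockouts and 56.7% to 62.1% in controls. The share of Hk1 was 25.5% to 27.3% in knockouts and 17.6% to 21.8% in controls, with no overlap. That share divides by a sum that includes Hk2 and Hk3, which fell, so it is not a separate result. The share of Hk2 was 13.4%, 18.9% and 19.8% in knockout replicates 1 to 3 and 19.4% to 23.9% in controls.

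**Figure D2:**
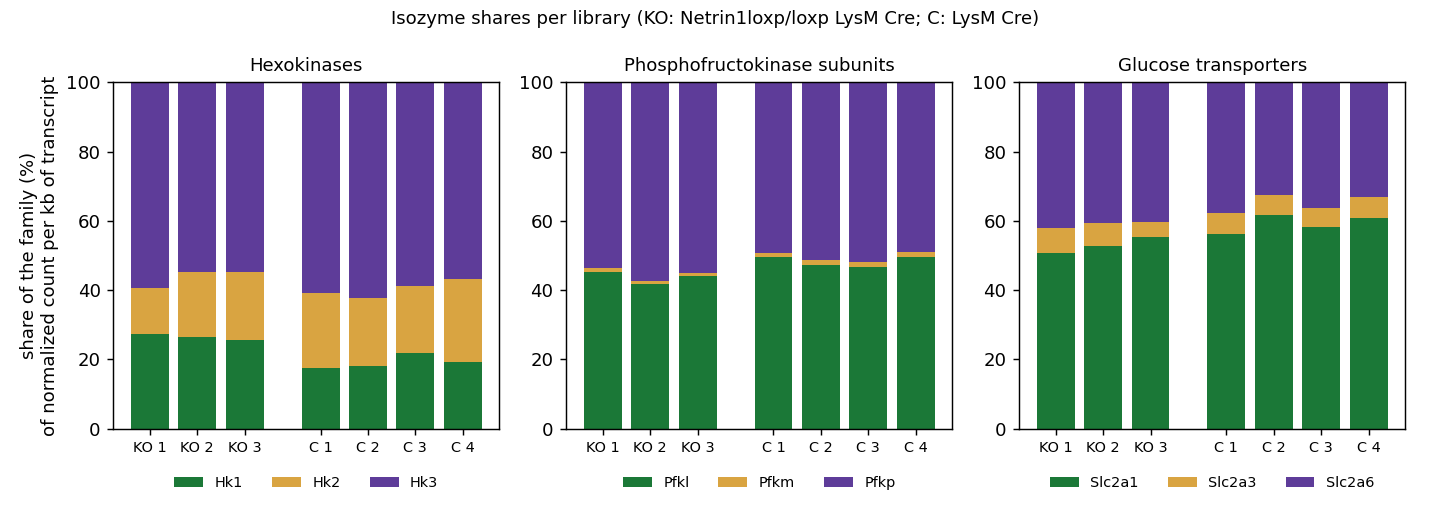
Stacked bars for hexokinases, phosphofructokinase subunits and glucose transporters give each isozyme's share (percent, y axis) of its family's summed normalized count per kilobase of transcript in each library (KO, knockout replicates 1 to 3; C, control replicates 1 to 4). The green Hk1 segment is taller in the 3 knockout libraries (25.5% to 27.3%) than in the 4 control libraries (17.6% to 21.8%), while Pfkm is under 2% of its family throughout. The Hk1 count itself was level, and its share divides by a sum that includes Hk2 and Hk3, which fell.

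The promoters of the 5 genes that fell, and of Ldha, the abundant partner of Ldhb, are shown because hypoxia-inducible factor binds a short core, ACGTG, found in many glycolytic promoters. The sequences are from RefSeq (GRCm38.p6), run from 250 bases before to 50 after the annotated start, and are written in the direction of transcription. Capitals mark ACGTG on either strand, including any that overlap in the E-box CACGTG. The windows are chr6:82774405-82774704 for Hk2, chr13:55021336-55021635 for Hk3, chr6:124769624-124769923 for Eno2 and chr6:142507908-142508207 for Ldhb, all on the minus strand, and, on the plus strand, chr15:98092339-98092638 for the first of the 4 Pfkm starts and chr7:46845554-46845853 for the first of the Ldha starts.
Hk2: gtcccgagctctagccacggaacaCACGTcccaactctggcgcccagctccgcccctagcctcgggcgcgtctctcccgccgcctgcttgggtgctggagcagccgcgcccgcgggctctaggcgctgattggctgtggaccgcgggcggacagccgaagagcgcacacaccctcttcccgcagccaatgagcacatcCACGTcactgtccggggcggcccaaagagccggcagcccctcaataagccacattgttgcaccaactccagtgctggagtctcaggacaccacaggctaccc
Hk3: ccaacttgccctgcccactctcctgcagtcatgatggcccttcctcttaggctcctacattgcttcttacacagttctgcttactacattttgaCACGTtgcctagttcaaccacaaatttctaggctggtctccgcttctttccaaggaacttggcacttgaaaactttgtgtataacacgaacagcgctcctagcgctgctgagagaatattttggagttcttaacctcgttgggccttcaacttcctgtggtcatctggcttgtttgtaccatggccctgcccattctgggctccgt
Pfkm: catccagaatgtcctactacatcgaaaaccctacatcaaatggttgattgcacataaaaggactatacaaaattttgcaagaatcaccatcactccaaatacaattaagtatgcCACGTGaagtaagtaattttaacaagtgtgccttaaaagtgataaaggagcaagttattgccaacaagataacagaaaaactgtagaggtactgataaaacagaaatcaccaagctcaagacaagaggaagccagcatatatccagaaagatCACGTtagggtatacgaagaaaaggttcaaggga
Eno2: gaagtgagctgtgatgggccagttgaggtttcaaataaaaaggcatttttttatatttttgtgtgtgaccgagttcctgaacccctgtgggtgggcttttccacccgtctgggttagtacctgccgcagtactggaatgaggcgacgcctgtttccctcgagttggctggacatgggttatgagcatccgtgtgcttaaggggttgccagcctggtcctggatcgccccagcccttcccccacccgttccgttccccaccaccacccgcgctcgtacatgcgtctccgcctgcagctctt
Ldhb: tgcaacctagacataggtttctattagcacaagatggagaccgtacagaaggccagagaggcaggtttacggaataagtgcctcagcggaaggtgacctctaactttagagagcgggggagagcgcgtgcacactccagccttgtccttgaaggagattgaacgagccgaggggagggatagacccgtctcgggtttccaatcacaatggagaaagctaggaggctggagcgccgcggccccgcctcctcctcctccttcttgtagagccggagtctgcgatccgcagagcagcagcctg
Ldha: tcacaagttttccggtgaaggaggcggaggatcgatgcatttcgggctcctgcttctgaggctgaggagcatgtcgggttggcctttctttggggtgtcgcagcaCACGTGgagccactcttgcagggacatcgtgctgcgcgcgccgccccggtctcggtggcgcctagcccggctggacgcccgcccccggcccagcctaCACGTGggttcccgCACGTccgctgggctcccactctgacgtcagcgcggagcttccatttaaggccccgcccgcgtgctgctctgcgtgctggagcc
Hk2 had the core beginning 226 and 52 bases before the start, and Hk3 had it once, 156 bases before. The Pfkm window shown had 3 matches, of which 2 make up a CACGTG, a second Pfkm window had 1, and the remaining Pfkm windows had 0. Eno2 and Ldhb had none in these windows, while Ldha, which was not called, had 5 matches, 4 of them in a pair of CACGTG motifs. RefSeq windows were matched for 33 members (Slc2a3 was not matched). ACGTG occurred in 21 of their 47 windows (44.7%) and in 19.6% of all 32851 windows, and CACGTG in 8.51% of the members' windows and 7.15% of all. The median GC content was 61% in the members' windows and 52.7% in all. A match is a description of the letters and not of binding.

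The next steps turn glucose phosphate into triose phosphates. Pfkm, the muscle-type subunit of phosphofructokinase, was scarce (30 to 68 reads a library) and fell. It had 41.6, 28.8 and 44.3 normalized counts in knockout replicates 1 to 3, against 51.8, 60.7, 60.2 and 69.0 in control replicates 1 to 4. The groups did not overlap, and the log2 fold change was -0.66 (SE 0.19, limma adjusted p = 0.0396). The call was lost without knockout replicate 1 (adjusted p = 0.0520) or 2 (0.126) or control replicate 2 (0.0886), 3 (0.0738) or 4 (0.0984), within a range of 0.0240 to 0.168 over the alternatives. Its share of the summed phosphofructokinase level per kilobase was 0.759% to 1.25% in knockouts and 1.21% to 1.65% in controls. Pfkm overlaps Senp1 by 18 exon bases on the opposite strand, and a same-strand gene, Gm26513, by 341.

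The abundant phosphofructokinase subunits did not pass the test. Pfkl, the liver-type subunit, had 1945, 2058 and 2457 normalized counts in knockout replicates 1 to 3, against 2740, 2547, 2204 and 3109 in control replicates 1 to 4. Knockout replicate 3 lay above control replicate 3, and the log2 fold change was -0.30 (SE 0.12, limma adjusted p = 0.122). Pfkp, the platelet-type subunit, lay between 2555 and 3404 in knockouts and between 2722 and 3416 in controls, with a log2 fold change of -0.019. It took 53.5% to 57.5% of the summed level per kilobase in knockouts and 49.0% to 51.8% in controls. Pfkfb3 and Pfkfb4, whose products make and remove the sugar phosphate that activates phosphofructokinase, had log2 fold changes of -0.19 (interval -0.43 to 0.061) and 0.31 (interval -0.051 to 0.67). Pfkfb4 had 692.6, 605.7 and 456.2 normalized counts in knockout replicates 1 to 3, against 578.9, 424.7, 437.2 and 436.4 in control replicates 1 to 4.

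Gpi1, glucose phosphate isomerase, lay between 4331 and 5277 in knockouts and between 4722 and 5608 in controls. Aldoa, the main aldolase, had 11414, 11990 and 13037 in knockout replicates 1 to 3, against 13516, 12252, 11953 and 15247 in control replicates 1 to 4. The groups overlapped, with a log2 fold change of -0.12 (SE 0.11, limma adjusted p = 0.447). Aldoc, the brain-type aldolase, varied within both groups (151.1 to 300.9 in knockouts, 164.6 to 271.2 in controls). Tpi1, triose phosphate isomerase, had 3918, 4304 and 5735 in knockout replicates 1 to 3, against 5644, 5214, 4559 and 6783 in control replicates 1 to 4. It had a log2 fold change of -0.26 (SE 0.16, limma adjusted p = 0.275) and the groups overlapped.

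In lower glycolysis, which yields ATP and pyruvate, Eno2 was the member called under all 21 alternatives. Eno2 encodes the neuron-type enolase and had 23 to 96 reads a library. It had 23.3, 29.8 and 25.3 normalized counts in knockout replicates 1 to 3, against 68.0, 93.9, 67.3 and 74.0 in control replicates 1 to 4. The highest knockout library was below the lowest control library by more than the range of the knockouts. The log2 fold change was -1.49 (SE 0.18, limma adjusted p = 0.00132), between -1.59 and -1.37 over the alternatives. Eno2 made up 0.215% to 0.284% of the summed enolase level per kilobase in knockouts and 0.554% to 0.830% in controls, the rest being Eno1. Eno1, the main enolase, had 7835, 7601 and 8484 in knockout replicates 1 to 3, against 8852, 8140, 8261 and 9217 in control replicates 1 to 4 (log2 fold change -0.11, SE 0.080, limma adjusted p = 0.342). Its groups overlapped.

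**Figure D3:**
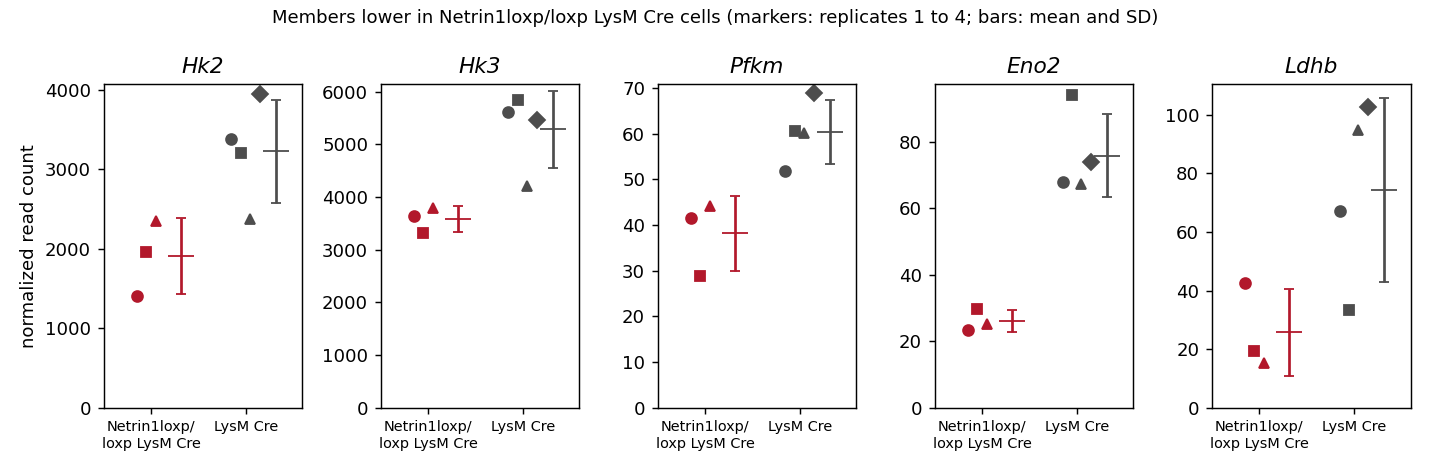
Normalized read count (y axis, from 0) of the 5 called genes in each library; markers are replicates 1 to 4 and bars give the mean and SD. The groups do not overlap for Hk2, Hk3, Pfkm and Eno2, while Ldhb in knockout replicate 1 (42.6) lies above control replicate 2 (33.3).

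The other lower-glycolysis enzymes included Pkm and Gapdh, the members with the highest mean normalized counts. Pkm, pyruvate kinase, had 19785, 16089 and 18686 normalized counts in knockout replicates 1 to 3, against 20264, 21195, 21675 and 23113 in control replicates 1 to 4. Every knockout library was below every control library, yet the test was not passed (log2 fold change -0.25, SE 0.10, limma adjusted p = 0.117). DESeq2 and limma-voom called it lower (adjusted p = 0.0429 and 0.0274, within a range of 0.0274 to 0.356 over the alternatives). Gapdh, the glyceraldehyde phosphate dehydrogenase, had 14092, 13754 and 15796 in knockout replicates 1 to 3, against 16424, 15990, 16198 and 18443 in control replicates 1 to 4. Its groups did not overlap either (log2 fold change -0.20, SE 0.094, limma adjusted p = 0.150). Pgam1, phosphoglycerate mutase, had 1185, 1130 and 1359 in knockout replicates 1 to 3, against 1485, 1348, 1337 and 1462 in control replicates 1 to 4. Its groups overlapped (log2 fold change -0.20, SE 0.081, limma adjusted p = 0.104), and it was called lower without knockout replicate 3 (adjusted p = 0.0445, within 0.0445 to 0.413 over the alternatives). Pgk1, phosphoglycerate kinase, lay between 2248 and 3127 in knockouts and between 2674 and 3717 in controls.

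Some of these genes have near-identical copies, which makes their counts uncertain by an amount that was not measured. GENCODE M21 held 103 copies of Gapdh at 95% identity over at least 300 bases, and the 43 of them in the table summed to 1.27% of the level of Gapdh and its copies. For Gpi1, Tpi1, Pgam1, Eno1, Pkm, Ldha and Pdhb, copies in the table summed to between 0.084% and 0.861%. Pgk1 had 4 copies and the called gene Ldhb had 1, none of them in the table. For 24 of the 34 members no such copy was found. Pkm shares 767 exon bases with the same-strand transcript Gm49759 (mean normalized count 910.9), and Hk3 shares 34 with Unc5a on the opposite strand. Pfkp shares 748 exon bases with Pitrm1, Pdha1 603 with Map3k15 and G6pdx 418 with Ikbkg, all on opposite strands, and the strand setting of the counting is not stated.

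Bpgm, whose product makes the phosphoglycerate that lowers the oxygen affinity of haemoglobin in red cells, had the largest SE of the 34 members. It had 2212, 325.9 and 251.1 normalized counts in knockout replicates 1 to 3, against 134.1, 264.2, 522.1 and 176.8 in control replicates 1 to 4. The log2 fold change was 1.24 (SE 0.73, limma adjusted p = 0.254), and 0.26 without knockout replicate 1. The sum of 7 erythroid genes (globins, Alas2 and Slc4a1 among them) was 136707, 10593 and 6936 in knockout replicates 1 to 3, against 1254, 10536, 26210 and 4235 in control replicates 1 to 4. Ordered by either quantity, the 7 libraries stand in the same order. The part of red cell RNA in the Bpgm values was not tested.

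**Figure D4:**
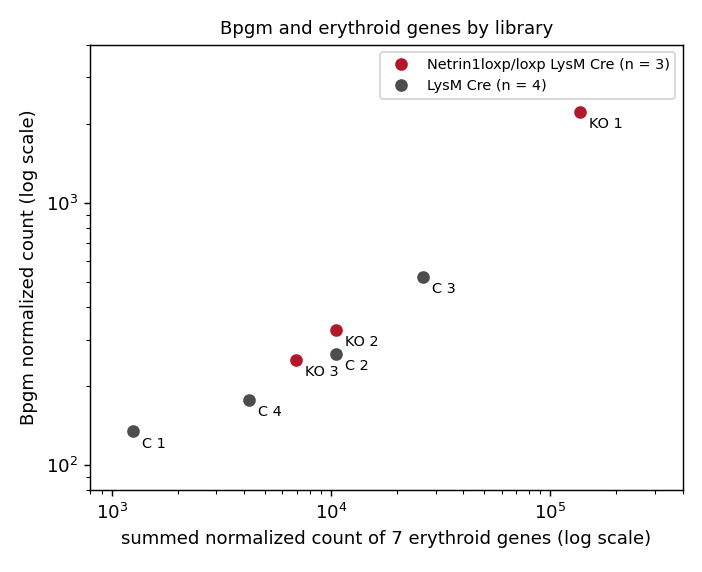
Bpgm normalized count (y axis, log scale) against the summed normalized count of 7 erythroid genes (x axis, log scale), 1 point per library (KO, knockout; C, control). Knockout replicate 1 is highest in both (2212 and 136707), control replicate 1 is lowest in both (134.1 and 1254), and both groups lie along the same sequence.

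Lactate dehydrogenase converts pyruvate to lactate and back. Ldhb, the heart-type subunit, was scarce (17 to 107 reads a library) and fell, with 42.6, 19.2 and 15.4 normalized counts in knockout replicates 1 to 3, against 67.0, 33.3, 94.7 and 102.8 in control replicates 1 to 4. The groups overlapped, since knockout replicate 1 was above control replicate 2. The log2 fold change was -1.51 (SE 0.44, limma adjusted p = 0.0415). The call was lost without control replicate 1 (adjusted p = 0.0743), 3 (0.0893) or 4 (0.103) or knockout replicate 2 (0.121) or 3 (0.120), within 0.00498 to 0.202 over the alternatives.

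Ldha, the muscle-type subunit, made up 98.6% to 99.8% of the summed lactate dehydrogenase level per kilobase across the 7 libraries. It had 7502, 8639 and 10459 normalized counts in knockout replicates 1 to 3, against 10612, 9858, 8834 and 11347 in control replicates 1 to 4. The groups overlapped (log2 fold change -0.20, SE 0.13, limma adjusted p = 0.286). Slc16a3, the exporter of lactate in glycolytic cells, lay between 1803 and 2282 in knockouts and between 1637 and 2455 in controls. Slc16a1, which moves lactate both ways, lay between 529.3 and 954.9 in knockouts and between 654.9 and 870.9 in controls. Their log2 fold changes were -0.059 (interval -0.37 to 0.25) and -0.14 (interval -0.57 to 0.28).

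The pyruvate dehydrogenase complex carries pyruvate carbon into the mitochondrial cycle, and its kinases switch it off. None of the 6 genes passed the test by limma, edgeR or DESeq2. Pdk1, a kinase of the complex, had 675.3, 650.9 and 824.8 normalized counts in knockout replicates 1 to 3, against 782, 822.9, 853.1 and 1134 in control replicates 1 to 4. The groups overlapped (log2 fold change -0.32, SE 0.14, limma adjusted p = 0.133). Pdk3, another kinase of the complex, had a log2 fold change of 0.15 (interval -0.048 to 0.35). Pdha1 and Pdhb, the subunits of the first enzyme, had values of 0.13 (interval -0.015 to 0.27) and 0.091 (interval -0.085 to 0.27). Dlat and Dld, the second and the last enzyme, had values of -0.084 (interval -0.25 to 0.081) and 0.074 (interval -0.060 to 0.21). For Pdha1 and Dld every knockout library was above every control library.

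The oxidative pentose phosphate enzymes, which make NADPH, did not pass either. G6pdx, which opens the pathway, was 1966 to 2199 normalized counts in knockouts and 1814 to 1961 in controls, without overlap (log2 fold change 0.14, SE 0.066, limma adjusted p = 0.162). Pgd, the next dehydrogenase, was 3736 to 4629 in knockouts and 4392 to 4870 in controls (log2 fold change -0.20, SE 0.088, limma adjusted p = 0.140). Pgd was called lower without knockout replicate 1, at a log2 fold change of -0.29 (adjusted p = 0.0260), and in limma-voom with library weights, at -0.26 (adjusted p = 0.0313). Over the 21 alternatives its adjusted p lay between 0.0260 and 0.379. Of the 29 members not called, 24 had a 95% interval within a 1.5-fold change either way and 28 within 2-fold, the exception being Bpgm.

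Within each group the members ranked libraries unevenly. Control replicate 4 was the highest control for 18 of the 34 members (52.9%, against 23.2% of all genes tested), and control replicate 3 was the lowest for 17 (50%, against 29.4%). Knockout replicate 3 was the highest knockout for 19 members (55.9%, against 31.5% of all genes tested), and knockout replicate 2 the highest for 3. All 34 members together took 0.885%, 0.879% and 0.995% of the reads in knockout replicates 1 to 3, against 0.989%, 1.00%, 0.986% and 1.11% in control replicates 1 to 4. Knockout replicate 3 thus lay inside the control range. The 6 most abundant members, Pkm, Gapdh, Aldoa, Ldha, Eno1 and Tpi1, took 0.552% ± 0.0471 of the reads in knockouts (SD, n = 3) and 0.620% ± 0.0383 in controls (SD, n = 4).

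**Figure D5:**
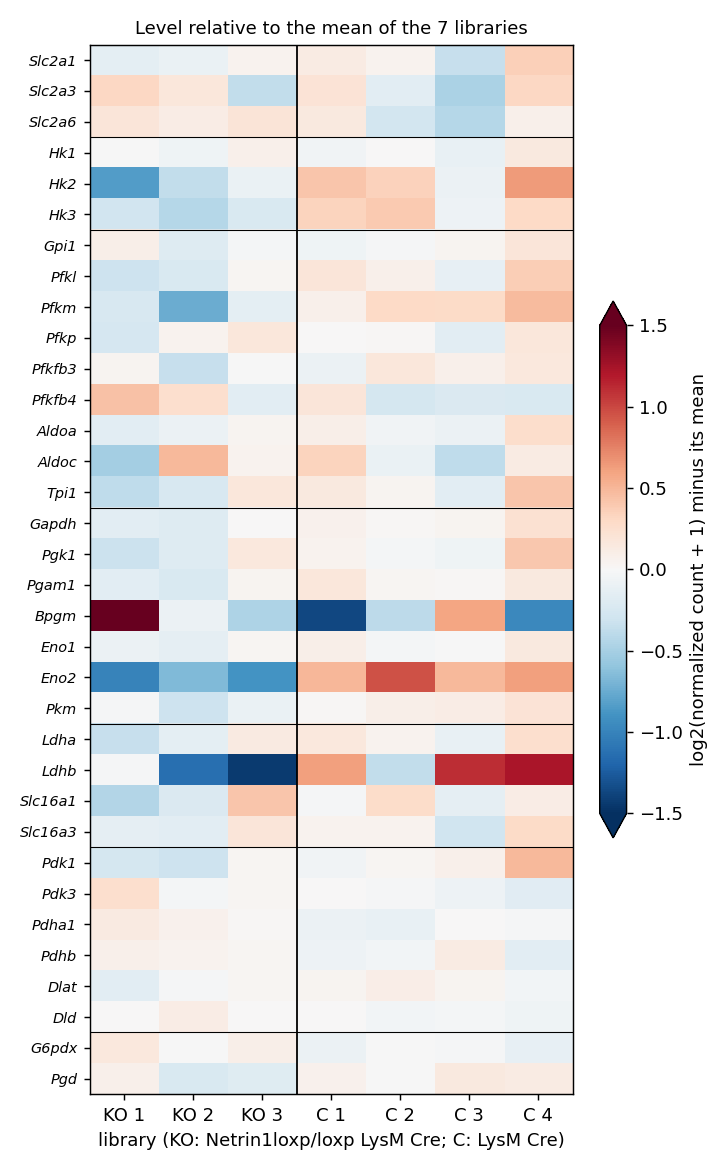
Colour gives log2(normalized count + 1) of each member (rows, by role) minus its mean over the 7 libraries (columns; KO, knockout; C, control). The Hk2, Hk3, Pfkm and Eno2 rows are bluer in the 3 knockout columns, the Bpgm row is deep red in KO 1, and most enzyme rows differ little between groups.

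Of the 5 called genes 3 lie on chromosome 6, as do 7 of the 34 members. The share of all chromosome 6 genes that were called was not looked at. On GRCm38, Hk2 spans chromosome 6 from 82725025 to 82774454, Eno2 from 124760053 to 124769673 and Ldhb from 142490249 to 142507957. Hk3 lies on chromosome 13 from 55005985 to 55021385 and Pfkm on chromosome 15 from 98092589 to 98132451. Tpi1 (124810586 to 124814296) and Gapdh (125161715 to 125166467) lie near Eno2 on chromosome 6 and were not called.

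Other genes of glucose metabolism were called in both directions. Of 57 tested genes of glycolysis, lactate and pyruvate handling, the pentose phosphate pathway, glycogen and the NADH shuttles, 4 rose and 3 fell (median log2 fold change 0.0066). Those shares, 7.02% and 5.26%, were below the 10.4% and 11.3% of all genes tested. Pfkfb2, a further enzyme of phosphofructokinase control, fell by 0.59 on the log2 scale (SE 0.17, limma adjusted p = 0.0420), as 1 of 13 other glycolysis and uptake genes; none rose. None of 13 other lactate and pyruvate genes passed. H6pd, the pentose phosphate dehydrogenase of the endoplasmic reticulum, fell by 0.64 (SE 0.16, limma adjusted p = 0.0222) and Rpia, an isomerase of pentose phosphates, rose by 0.30 (SE 0.085, limma adjusted p = 0.0361), out of 6. Of 15 glycogen genes, Gyg, the primer of glycogen synthesis, rose by 0.37 (limma adjusted p = 0.00566). Of 10 NADH shuttle genes 2 rose, Mdh1, the cytosolic malate dehydrogenase, by 0.40 (limma adjusted p = 0.00371) and Slc25a11, a malate carrier, by 0.25 (limma adjusted p = 0.0377).

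Of 20 regulators of glycolysis tested, 4 rose (20%, against 10.4% of all genes tested) and 1 fell (5%, against 11.3%). Egln3 encodes an oxygen sensor that marks hypoxia-inducible factor for removal. It had 246.4, 203.8 and 203.3 normalized counts in knockout replicates 1 to 3, against 414.4, 278.9, 288.5 and 583.1 in control replicates 1 to 4. It fell by 0.78 on the log2 scale without overlap (SE 0.24, limma adjusted p = 0.0482). Myc, a transcription factor that raises glycolytic genes, averaged 666.8 ± 83.1 in knockouts (SD, n = 3) and 448 ± 73.0 in controls (SD, n = 4), a log2 fold change of 0.58 (limma adjusted p = 0.0197). Its partner Max rose by 0.40 (limma adjusted p = 0.00460). Txnip, which restrains glucose uptake, had 7265, 5391 and 4188 in knockout replicates 1 to 3, against 3369, 3325, 3793 and 3047 in control replicates 1 to 4, a log2 fold change of 0.70 (limma adjusted p = 0.0191). Every knockout library was above every control library. Knockout replicate 1 was the highest and also had the highest neutrophil and erythroid sums. Knockout replicate 2 had more Txnip than knockout replicate 3, with a lower neutrophil sum (48887 against 53281) and a higher erythroid sum (10593 against 6936). The part of cell composition in Txnip was not tested. Trp53, the tumour suppressor that restrains glycolysis, rose by 0.31 (limma adjusted p = 0.0165). Hif1a, encoding a subunit of hypoxia-inducible factor, was not called (log2 fold change -0.11, interval -0.44 to 0.22, limma adjusted p = 0.628). Epas1 of the same list was not called either (log2 fold change 0.48, interval 0.072 to 0.88, limma adjusted p = 0.0878). These RNA levels do not measure the activity of the proteins.

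In the authors' deposited table, 4 of the members were lower at an adjusted p under 0.05 and 0 higher, where 9.92% of its genes were lower and 8.92% higher. In the authors' deposited table the 4 were Hk2 (log2 fold change -0.63), Hk3 (-0.52), Eno2 (-1.15) and Ldhb (-0.78), and Pfkm had an adjusted p of 0.0556.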

How the data were processed

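RNA of bronchoalveolar lavage cells was sequenced in 7 libraries, grouped by the titles. The submitters' processing notes name GRCm38 (mm10), STAR 2.5.3a, cutadapt 1.15, HTSeq and DESeq2. The sources used here give no strand setting or annotation. The authors' deposit is 1 table whose library columns hold a signal, read counts divided by a size factor; 100% of values were whole multiples of the library's smallest value within 0.01, so whole reads were recovered. Per the file headers, it also gives the authors' log2 fold change, standard error, a score (the test statistic), the p-value and its adjusted form.

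Genes with a mean of at least 10 normalized counts (12963) were fitted with limma 3.58.1 in R 4.3.3 (eBayes with trend) on log2(normalized count + 1), knockout over control, with Benjamini-Hochberg adjustment over all of them; calls used an adjusted p under 0.05. This scale understates changes of low genes. A count of 0 allows up to 3 reads. Levels per kilobase used the longest principal transcript of GENCODE M21, which matched 16444 of the 16476 identifiers. Libraries within a group differed beyond counting noise (chi-square 7.85 to 31.8 per gene), so each was counted once. The fit was also run on reads simulated with known changes, and no result here draws on that run. Alternatives were other scalings, pseudocounts (0.5 and 5) and filters (none, and a mean of at least 50), edgeR 4.0.16, DESeq2 1.42.0, limma-voom with library weights, the title number as a block, single libraries left out, and 2 pairs of controls left out; the column-name number as a block was chosen after seeing the data. The members, the lists and the pairs of controls were chosen with earlier results of these data known. Every member was named; values in every library were given for called members, the 6 most abundant and the 4 uncalled with the lowest p, and other pathway genes were named when called, except 1 that is not reported here. Slc2a6, Pfkfb4, Bpgm, Hif1a and Epas1 were given more fully after their values were seen.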

Additional observations from a re-analysis of the deposited data

Results flagged for a closer look

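In control libraries Pfkfb4 stood at 578.9 normalized counts in replicate 1, against 424.7, 437.2 and 436.4 in the other 3. The gap to the nearest library was 0.919 of the range, above Dixon's critical value for 4 samples. All 34 members were looked at in controls, and chance alone exceeds that value in about 5% of groups.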

How the results depend on the processing

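Over 21 alternatives, 648 of the 714 fold changes of single members kept their direction and their side of the threshold. The number of members lower was 5 to 7 under the other scalings, pseudocounts, filters and count tests, against 5 in the main result, and the same 5 genes were called in each. In those settings 2473 to 3477 of all genes were called in either direction, against 2813 in the main result. The 7 came from limma-voom with library weights, which also called the most genes, 3477 of 12963. With single libraries left out, 1 to 5 members were lower and 0 higher, while 695 to 1172 of all genes were higher and 820 to 1303 lower; fewer libraries were fitted in each. Without control replicates 1 and 4, 1 member was higher and 1 lower (624 genes higher, 567 lower), and without control replicates 2 and 3, 3 were lower (622 genes higher, 620 lower).

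Libraries that share a title number did not deviate together (correlations -0.23, -0.025 and -0.19). With the title number as a replicate block, 1 member was lower, and 424 genes were higher and 382 lower. With the column-name number as a block (correlations -0.077, -0.29 and 0.076), 2 members were lower, and 591 genes were higher and 605 lower.

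Directions changed only for members near 0, none of them called. Hk1 was -0.0012 with upper quartile scaling, -0.0073 in edgeR, -0.0081 in DESeq2, -0.031 in limma-voom, -0.049 without control replicates 2 and 3 and -0.016 with the column-name block. Pfkp was 0.0044 with library totals, 0.019 in limma-voom, 0.035 with the title block and 0.058 without control replicates 1 and 4. Slc2a3 was -0.037 in limma-voom and -0.22 without control replicates 2 and 3, as was Aldoc at -0.22. Without control replicates 1 and 4, Slc16a3 was 0.085, Slc2a1 0.083 and Aldoa 0.0032; Slc16a3 was 0.029 with the title block. With single libraries left out, Hk1 ranged from -0.036 to 0.052, Pfkp from -0.11 to 0.10, Slc2a3 from -0.081 to 0.27, Aldoc from -0.22 to 0.28, Slc16a1 from -0.39 to 0.036 and Slc16a3 from -0.17 to 0.029. The cause was not tested.

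Pfkm, Eno2 and Ldhb rest on few reads, and groups of 3 and 4 libraries limit what small differences can be seen among the abundant enzymes.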
